A study of Mus musculus with 4 samples.

Results

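The 10 genes described here belong to the late programme of neutrophil maturation and to the gelatinase granules of these cells: Mmp8, Mmp9, Padi4, S100a8, S100a9, Cxcr2, Trem1, Trem3, Retnlg and Anxa1. They were chosen by name, with earlier results of these data known, and all 10 were found among the 23235 genes of the deposited tables. RNA had been sequenced from acute myeloid leukaemia of genotype NRASG12V/Mll-AF9, in which doxycycline shuts off NRASG12V. The 4 groups are leukaemia with NRASG12V expression on, and leukaemia with NRASG12V expression off for 48 h, 72 h and 96 h, with 1 library in each. All 4 groups carry the Mll-AF9 fusion and grew from leukaemia cells injected into the tail vein of SCID/Beige mice, left for 20 days until white cells exceeded 100000 per microlitre. Doxycycline was injected into the peritoneum at time 0 and then kept in the drinking water until sacrifice. The labels name no group given doxycycline with NRASG12V still on, so drug, elapsed time and loss of the oncogene cannot be told apart. They do not give the promoter of the transgene, the organ taken, the age of the mice or the number of mice behind each library.

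Neutrophils build their granules in order: proteases of the primary granules in promyelocytes, then the secondary or specific granules, then the gelatinase granules, while receptors that steer the mature cell appear last. Mature neutrophils are also known for very high levels of the calcium-binding proteins S100a8 and S100a9. SCID/Beige mice lack functional T and B cells and have impaired NK cells and granules, yet they form neutrophils, monocytes and red cells, so RNA of host neutrophils and of leukaemia cells cannot be told apart in these libraries. In bulk RNA, more cells of a type and more RNA per cell cannot be told apart either.

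With NRASG12V off, 5 of the 10 genes rose: Mmp8, Retnlg, Mmp9, Cxcr2 and Padi4. The other 5, S100a8, S100a9, Trem1, Trem3 and Anxa1, did not pass the test, and none fell, also at an unadjusted limma p under 0.05. Levels are FPKM, a fragment count divided by gene length and by library size, put on 1 scale through the on library. Each change is log2((off + 1)/(on + 1)) in FPKM, which understates the change of low genes. The test was limma on log2(FPKM + 1), with the 3 off libraries as samples of 1 state against the single on library and Benjamini-Hochberg adjustment at 0.05. It counts differences between times as spread, gives the on library no replicate of its own, and its p-values reflect only how these libraries scatter, which may be technical. Of 11958 genes tested, 11.8% rose and 15.2% fell, 27% in all. With the median change of all genes set to 0, limma called 1738 higher and 1240 lower, against 1410 and 1817. All 10 members reached 1 FPKM in every library, so none passed the filter on low values through the off libraries alone.

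The windows upstream of 3 of the genes that rose are shown with that of S100a8, the abundant gene that did not pass, to set their sequences side by side. Each is the 250 bases before the RefSeq gene start in GRCm38.p6, a later build than the mm9 of the deposited values. They lie at chr9:7558179-7558428 for Mmp8, chr16:48872358-48872607 for Retnlg, chr1:74153744-74153993 for Cxcr2 and chr3:90668821-90669070 for S100a8, all on the + strand. Capitals mark matches, searched on either strand, to 3 motifs. The C/EBP-type motif was spelled TTGCNNAA. For the ETS core the letters were AGGAAG. The TATA box was searched as TATAAA. C/EBP and ETS factors are known regulators of myeloid genes.
Mmp8: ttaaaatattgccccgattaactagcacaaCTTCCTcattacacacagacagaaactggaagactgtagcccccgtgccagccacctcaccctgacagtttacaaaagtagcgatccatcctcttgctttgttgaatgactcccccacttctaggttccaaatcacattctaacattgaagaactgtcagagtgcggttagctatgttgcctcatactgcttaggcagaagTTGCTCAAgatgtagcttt
Retnlg: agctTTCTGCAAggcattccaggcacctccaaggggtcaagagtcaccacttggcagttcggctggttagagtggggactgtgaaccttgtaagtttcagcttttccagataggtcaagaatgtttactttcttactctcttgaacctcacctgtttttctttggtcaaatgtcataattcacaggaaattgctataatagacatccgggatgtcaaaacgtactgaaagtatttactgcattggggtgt
Cxcr2: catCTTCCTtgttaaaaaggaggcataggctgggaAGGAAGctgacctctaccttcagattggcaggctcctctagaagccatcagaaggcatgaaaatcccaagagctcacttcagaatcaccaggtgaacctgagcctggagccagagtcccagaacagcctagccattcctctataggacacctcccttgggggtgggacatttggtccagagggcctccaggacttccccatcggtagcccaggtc
S100a8: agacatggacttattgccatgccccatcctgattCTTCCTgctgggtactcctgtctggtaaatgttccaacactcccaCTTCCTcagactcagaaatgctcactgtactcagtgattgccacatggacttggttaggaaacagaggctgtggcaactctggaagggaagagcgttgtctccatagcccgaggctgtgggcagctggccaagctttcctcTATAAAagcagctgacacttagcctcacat
The C/EBP-type motif was present once in the windows of Mmp8 and Retnlg and was not matched in those of Cxcr2 and S100a8. The ETS core was present once for Mmp8 and 2 times each for Cxcr2 and S100a8, and S100a8 had the TATA box beginning 30 bases before its start. Of 8 members with a window in the RefSeq table, 4 had the C/EBP-type motif, 5 the ETS core and 3 the TATA box, against 9.56%, 29.5% and 12.4% of all 32851 windows of the same length. The 4 with the C/EBP-type motif were Mmp8 and Retnlg, which rose, and S100a9 and Anxa1, which did not pass. Padi4 and Cxcr2, which rose, and S100a8 and Trem1, which did not pass, had none. No 2 of the matches shown overlap. A match is a run of letters, and nothing in these data measures binding there.

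Among the enzymes, Mmp8, the neutrophil collagenase, had the largest change of the 10. It was at 22.7 FPKM with NRASG12V on, 156 FPKM after 48 h, 165 FPKM after 72 h and 95.3 FPKM after 96 h off. All 3 off libraries lay above the on library, at 6.86, 7.24 and 4.19 times its level. Every off library was above the on library in 33.4% of the genes tested. Mmp8 rose by 2.52 ± 0.43 on the log2 scale (SD, n = 3 off libraries; limma, Benjamini-Hochberg adjusted p = 0.00182). Among 22500 genes outside short RNAs its rank by FPKM was 3293 with NRASG12V on and 353, 323 and 688 at 48 h, 72 h and 96 h off.

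Mmp9, the gelatinase that gives the granules their name, was at 41.7 FPKM on, 179 FPKM after 48 h, 158 FPKM after 72 h and 105 FPKM after 96 h off. Every off library was at least 2.52 times the on library. Mmp9 rose by 1.76 ± 0.40 (SD, n = 3; limma, Benjamini-Hochberg adjusted p = 0.00516). Mmp8 was at 0.546 times the FPKM of Mmp9 with NRASG12V on, and at 0.869, 1.04 and 0.909 times at 48 h, 72 h and 96 h off, so the pair stood closer to equal in all 3 off libraries.

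Padi4 encodes the enzyme that citrullinates histones when neutrophils release chromatin traps. Its level was 18.0 FPKM on and 52.0, 46.5 and 29.9 FPKM at 48 h, 72 h and 96 h off. The on library was again the lowest, but at 96 h the ratio was 1.66, short of 2-fold. Padi4 rose by 1.17 ± 0.41 (SD, n = 3; limma, Benjamini-Hochberg adjusted p = 0.0224), and with no filter on low values it no longer passed (adjusted p = 0.0786; 0.000356 to 0.0786 over all alternatives).

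Retnlg, a secreted relative of resistin made by mouse neutrophils, was at 162 FPKM on, 921 FPKM after 48 h, 902 FPKM after 72 h and 559 FPKM after 96 h off. It was the member with the second largest change. All its off libraries lay above the on library, as was the case for 33.4% of the genes tested. Retnlg rose by 2.25 ± 0.41 (SD, n = 3; limma, Benjamini-Hochberg adjusted p = 0.00246). Anxa1, a calcium-dependent phospholipid-binding protein that neutrophils keep in gelatinase granules and that limits inflammation, differed in pattern. It was at 584 FPKM on, 684 FPKM after 48 h, 611 FPKM after 72 h and 378 FPKM after 96 h off. The on library lay inside the range of the off libraries, with 2 above it and 1 below. Its mean log2 change was -0.11 ± 0.45 (SD, n = 3; limma, Benjamini-Hochberg adjusted p = 0.821). Without the 96 h library the change was 0.15 (adjusted p = 0.574), and with the median of pan-leukocyte genes set to 0 it was 0.79 (adjusted p = 0.269).

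**Figure D1:**
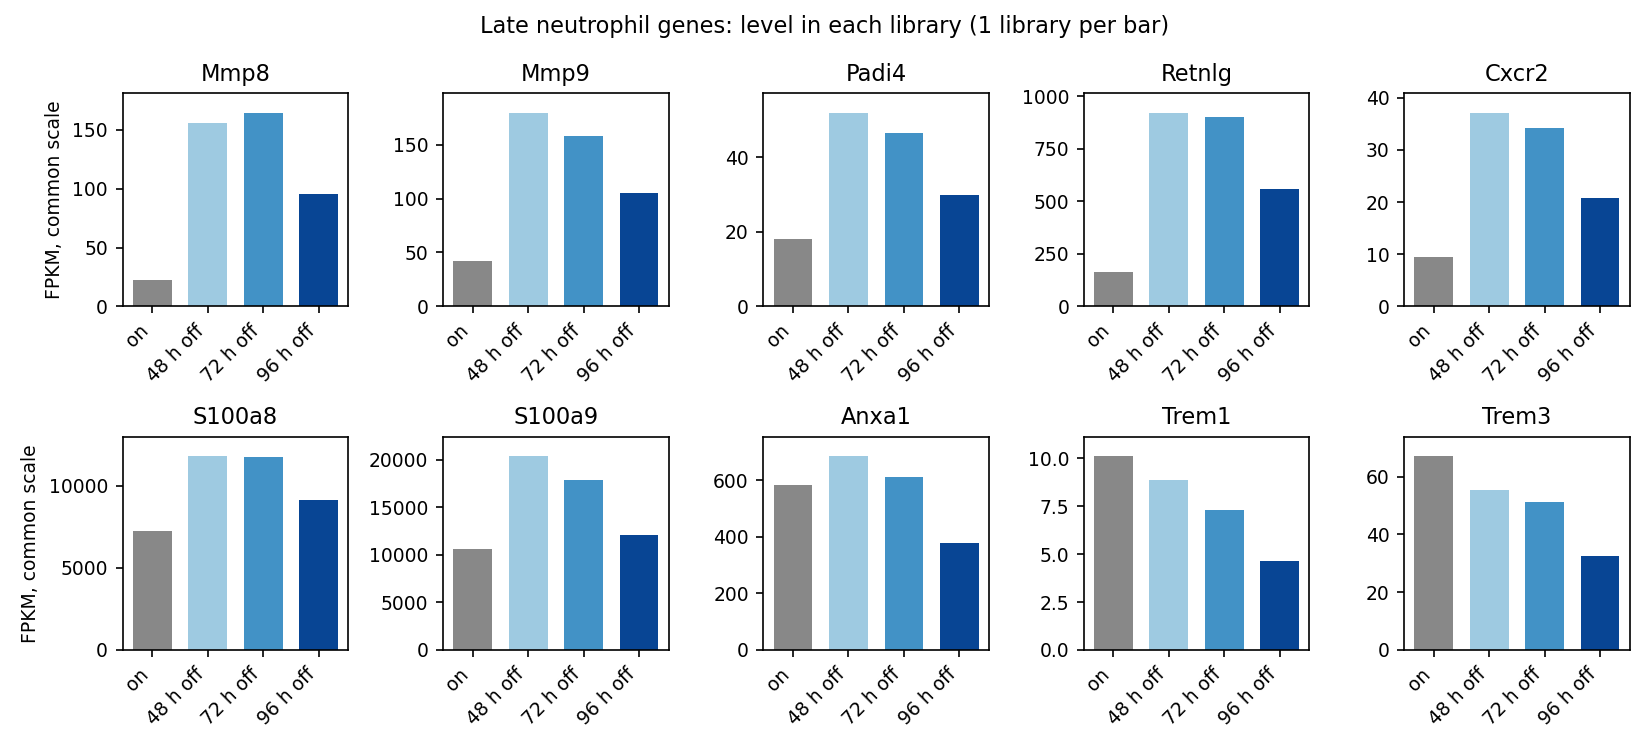
Level of each of the 10 genes in FPKM on a common scale (y axis, from 0, its own range per panel) in the 4 libraries (x axis: on, 48 h, 72 h and 96 h off); each bar is 1 library, so there is no error bar. In the upper row (Mmp8, Mmp9, Padi4, Retnlg and Cxcr2) and for S100a8 and S100a9, all 3 off bars stand above the on bar. For Trem1 and Trem3 all 3 stand below it. Of all genes tested, 33.4% had every off library above the on library and 45.7% had every one below.

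Of the receptors, Cxcr2, which binds the chemokines Cxcl1 and Cxcl2 and draws neutrophils out of the marrow, rose. It was at 9.54 FPKM with NRASG12V on, 37.1 FPKM after 48 h, 34.3 FPKM after 72 h and 20.9 FPKM after 96 h off. Its off libraries were 3.89, 3.59 and 2.19 times the on library. The mean log2 change was 1.55 ± 0.43 (SD, n = 3; limma, Benjamini-Hochberg adjusted p = 0.00894).

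Trem1 and Trem3, neighbouring genes for receptors that signal through the adaptor Tyrobp and amplify inflammatory responses, had lower values off than on. Trem1 was at 10.1 FPKM on, 8.89 FPKM after 48 h, 7.29 FPKM after 72 h and 4.63 FPKM after 96 h off, and Trem3 was at 67.0 FPKM on and 55.5, 51.1 and 32.6 FPKM off in time order. Both genes were lower in each off library than in the on library, as was the case for 45.7% of the genes tested. Their mean log2 changes, -0.52 ± 0.42 and -0.56 ± 0.40 (SD, n = 3), did not pass the test (limma, Benjamini-Hochberg adjusted p = 0.212 and 0.187). Without the 48 h library the change of Trem1 was -0.70, on the 72 h and 96 h libraries alone. With the pan-leukocyte median set to 0 both changes were positive, 0.37 for Trem1 and 0.34 for Trem3 (limma, adjusted p = 0.560 and 0.623). The FPKM of Trem3 was 6.62 times that of Trem1 with NRASG12V on and 6.24, 7.0 and 7.04 times at 48 h, 72 h and 96 h off.

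S100a8 and S100a9, neighbouring genes whose products pair as calprotectin, an alarmin that also binds metal ions, were the most abundant members by far. S100a9 was at 10601 FPKM on, 20383 FPKM after 48 h, 17866 FPKM after 72 h and 12145 FPKM after 96 h off. S100a8 was at 7254 FPKM on, 11774 FPKM after 48 h, 11751 FPKM after 72 h and 9122 FPKM after 96 h off. The on library was the lowest for both, which held for 33.4% of all genes tested. Neither passed, with mean log2 changes of 0.63 ± 0.39 for S100a9 and 0.57 ± 0.21 for S100a8 (SD, n = 3; limma, Benjamini-Hochberg adjusted p = 0.187 and 0.147). Without the 96 h library, where both were lowest among the off libraries, their changes were 0.85 and 0.70, on the 48 h and 72 h libraries alone. With the pan-leukocyte median set to 0 both passed, at 1.53 and 1.47 (limma, adjusted p = 0.0411 and 0.0477). S100a9 ranked 1st in FPKM outside short RNAs in the on library and at 48 h and 3rd at 72 h and 96 h; S100a8 ranked 2nd on and 3rd, 5th and 4th at the 3 times off.

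**Figure D2:**
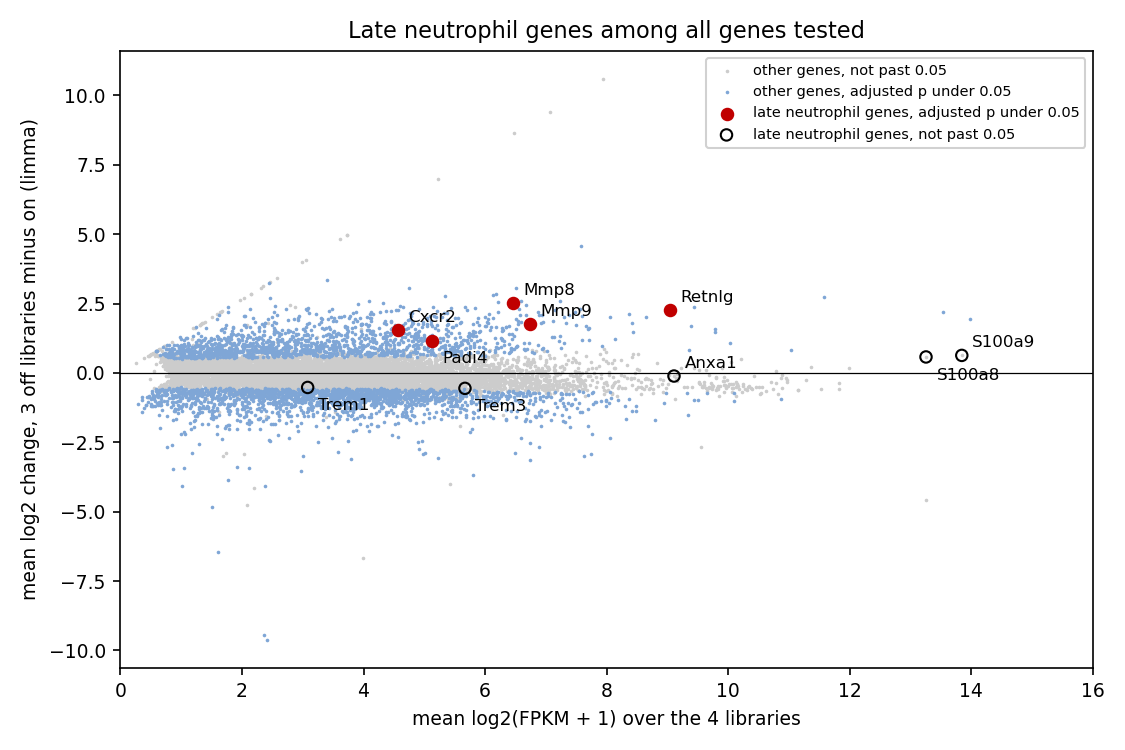
Mean log2 change of the 3 off libraries against the on library (y axis, limma) by mean log2(FPKM + 1) over the 4 libraries (x axis) for all 11958 genes tested, one point per gene. Mmp8, Retnlg, Mmp9, Cxcr2 and Padi4 (filled red) passed the test with changes from 1.17 to 2.52, and the other 5 members (open circles) lie between -0.56 and 0.63.

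By time, the members were counted as higher or lower when at least 2-fold apart, among genes reaching 1 FPKM in either library. With 1 library on each side these counts have no replicate check, and all 3 times share the on library. At 48 h, 5 members were higher and none lower, where 5% of 11739 genes were higher and 4.85% lower. At 72 h the same 5 were higher and none lower, where 6.61% of 11746 genes were higher and 5.76% lower. At 96 h, 4 were higher (Mmp8, Retnlg, Mmp9 and Cxcr2) and Trem3 was lower at a log2 change of -1.02, where 7.39% of 11729 genes were higher and 8.16% lower. Near the 2-fold limit, Cxcr2 stood at 1.05 and Trem1 at -0.98 at 96 h, and S100a9 at 0.94 at 48 h. The median log2 change of the members was 1.21, 1.04 and 0.52 at 48 h, 72 h and 96 h, beside -0.14, -0.07 and -0.06 for all genes counted. Setting the median of genes present in both libraries to 0 would add 0.15, 0.09 and 0.07 to each change, which took S100a9 at 48 h to 1.09 and the share of higher genes among those called at 48 h to 67.2%, against 50.8%. At 96 h it left Trem3 at -0.95.

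**Figure D3:**
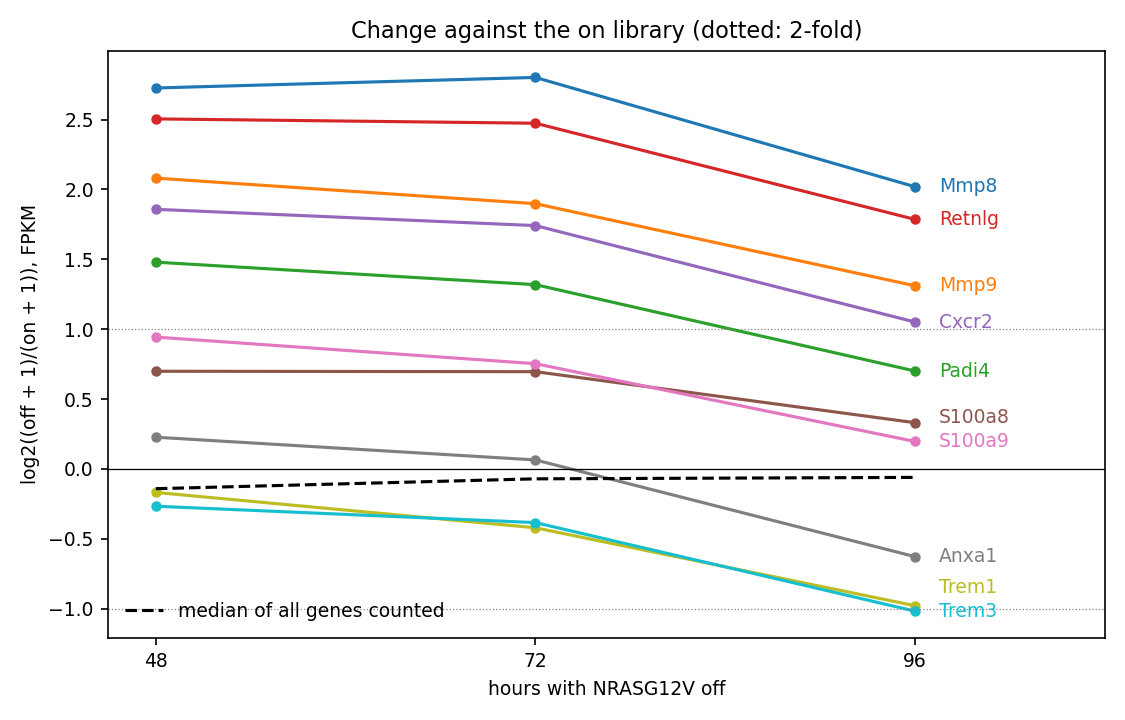
Log2((off + 1)/(on + 1)) in FPKM (y axis) at 48 h, 72 h and 96 h off (x axis) for each member, with the median of all genes counted as a dashed line and 2-fold as dotted lines; each point is 1 library against the same on library. Mmp8 is highest at each time (2.73, 2.80 and 2.02), and Anxa1 lies above 0 at 48 h (0.23) and below 0 at 96 h (-0.63).

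Between the off libraries, all 10 members were lower at 96 h than at 48 h, where 40.5% of the 11958 genes were lower. This comparison does not involve the on library except for the common scale. The log2 difference ran from -0.85 for Anxa1 to -0.70 for Mmp8 in 9 of the members, and was -0.37 for S100a8, which made the 96 h level 44.8%, 38.9% and 22.5% lower for these 3 genes. No member was 2-fold lower, a fall seen in 0.477% of genes. From 48 h to 72 h the median difference was -0.14, beside 0.06 for all genes. In that interval 9 members were lower, where 38.8% of all genes were lower, and Mmp8 was higher by 0.08. The ratio of S100a9 to S100a8 was 1.46 on and 1.73, 1.52 and 1.33 at 48 h, 72 h and 96 h off.

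Lower values at 96 h than at 48 h were shared with other leukocyte genes. They were found in 41 of 41 other late neutrophil genes, 15 of 15 other secondary granule genes, 15 of 15 primary granule genes, 21 of 25 monocyte and macrophage genes and 14 of 15 pan-leukocyte genes. The median log2 difference between these times was -0.73, -0.77, -0.54, -0.59 and -0.64 in these lists, beside -0.76 for the members. Erythroid genes went the other way: none of 21 was lower at 96 h, and their median difference was 0.67. The part of these other cells in the members' decline was not tested.

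**Figure D4:**
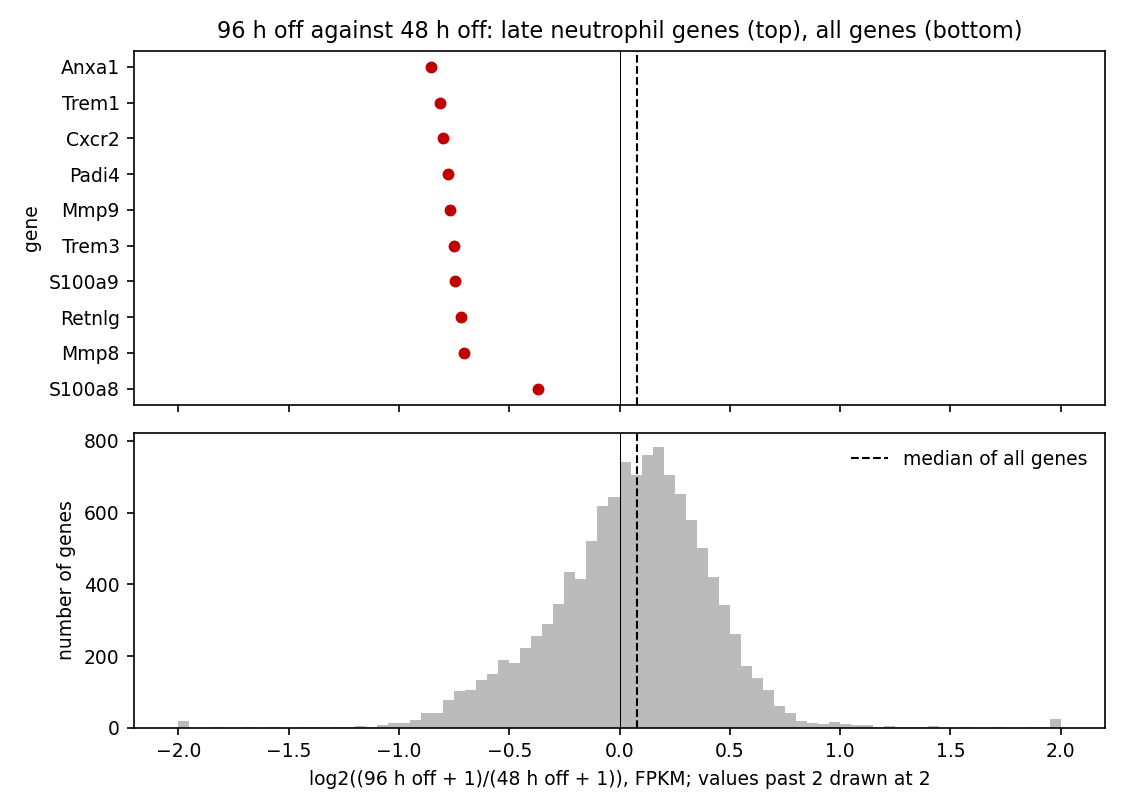
Log2((96 h off + 1)/(48 h off + 1)) in FPKM (x axis) for each member (upper panel, one point per gene) and for all 11958 genes (lower panel, number of genes per bin, values past 2 drawn at 2), with the median of all genes, 0.08, as a dashed line. All 10 members lie to the left of 0, S100a8 nearest at -0.37 and the other 9 between -0.85 and -0.70.

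By mean FPKM over the off libraries, which is a level per length, the members ran in the order S100a9, S100a8, Retnlg, Anxa1, Mmp9, Mmp8, Trem3, Padi4, Cxcr2 and Trem1. In the on library the order was S100a9, S100a8, Anxa1, Retnlg, Trem3, Mmp9, Mmp8, Padi4, Trem1 and Cxcr2. In the off order, 4 pairs of neighbours had off ranges that overlapped: Retnlg and Anxa1, Mmp9 and Mmp8, Trem3 and Padi4, and Padi4 and Cxcr2. Within the 3 off libraries the lowest S100a9 value, 12145 FPKM, was above the highest S100a8 value, 11774 FPKM.

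Other genes of mature neutrophils did not move as 1 group. Of 41 that were tested and are neither members nor on the secondary granule list, 6 rose, 6 fell and 29 did not pass limma's test. Among all genes tested, 11.8% rose and 15.2% fell, so these counts were near the background. The median log2 change of the 41 was 0.06, beside -0.08 for all genes and 0.90 for the members. The formyl peptide receptor Fpr1, at 4.66 FPKM on and 28.5, 27.9 and 16.9 FPKM at 48 h, 72 h and 96 h off, rose by 2.13 ± 0.41 (SD, n = 3; limma, Benjamini-Hochberg adjusted p = 0.00240). The membrane-anchored metalloproteinase Mmp25 rose by 1.66 ± 0.34 (limma, Benjamini-Hochberg adjusted p = 0.00387). Of 15 other secondary granule genes 4 rose and 1 fell, and the median was 0.19. Ceacam10 (1.52 ± 0.43) and Olfm4 (1.1 ± 0.31) rose, and B4galt6 (-1.51 ± 0.26) fell (limma, adjusted p = 0.00909, 0.0154 and 0.0033). Of the 15 primary granule genes tested, 13 fell and none rose, and the median was -1.85. The FPKM of Mmp8 was 1.17, 1.45 and 0.915 times that of Elane, the primary granule elastase, at 48 h, 72 h and 96 h off, against 0.0241 times with NRASG12V on.

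Binding partners and relatives of the members were followed by role. Of the ligands of Cxcr2, Cxcl1, Cxcl2, Cxcl3, Cxcl5 and Cxcl15 stayed under 1 FPKM in every library, and the platelet chemokine Ppbp did not pass. Pf4, a related platelet chemokine, did not pass either. Cxcr1, the other receptor of this class, was at 0.815 to 0.887 FPKM off, against 0.425 FPKM on. Of the 5 genes of Trem signalling only Card9 passed, falling by 0.90 ± 0.36 (limma, adjusted p = 0.0420), and Tyrobp was at 628 FPKM on and 484, 393 and 290 FPKM at the 3 times off without passing (adjusted p = 0.101). Within the Trem family, Trem2, a macrophage receptor, fell by 3.0 ± 0.56 and Treml4 rose by 0.90 ± 0.15 (adjusted p = 0.00217 and 0.0127), while Treml1 and Treml2 did not pass.

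Among inhibitors of the metalloproteinases, Timp2 rose by 1.06 ± 0.10 (limma, adjusted p = 0.00616), and Timp1, Timp3 and Reck did not pass. The FPKM of Mmp9 was 5.11, 4.43 and 3.33 times that of Timp2 at 48 h, 72 h and 96 h off, against 2.63 times on. Of the 6 other metalloproteinases tested, Mmp2 and Mmp25 rose, Mmp3, Mmp12 and Mmp19 fell, and Mmp14 did not pass. Padi2, the other peptidylarginine deiminase above 1 FPKM, fell by 1.09 ± 0.34 (limma, adjusted p = 0.0189), the opposite direction to Padi4; the difference between the 2 genes was not tested. Retnla, a resistin relative made by macrophages, was at no more than 0.586 FPKM off, against 5.27 FPKM on, and fell by 2.21 ± 0.21 (adjusted p = 0.000904).

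Of 7 other S100 genes tested, S100a4 (-2.87 ± 0.16), S100a10 (-2.52 ± 0.44), S100a1 (-0.83 ± 0.10) and S100a13 (-0.76 ± 0.16) fell and none rose (limma, adjusted p = 0.000334, 0.00184, 0.0144 and 0.0264). Of 7 other annexins, Anxa2 (-1.41 ± 0.45), Anxa4 (-0.91 ± 0.19) and Anxa6 (-1.34 ± 0.37) fell and none rose (limma, adjusted p = 0.0159, 0.0152 and 0.0118). Of 5 genes taken as receptors of the S100 proteins, Ager fell (-0.70 ± 0.17, limma, adjusted p = 0.0311). Cd68 fell too (-1.04 ± 0.31, limma, adjusted p = 0.0200), but its place among these receptors is uncertain. It is also on the monocyte and macrophage list. Tlr4 (0.02), Cd36 (0.40 ± 0.24) and Bsg (0.69 ± 0.23) did not pass (limma, adjusted p = 0.948, 0.214 and 0.0631). Of the other neutrophil chemokine receptors Ccr1 fell (-1.65 ± 0.39; adjusted p = 0.00547) and Cxcr4 did not pass (-0.57 ± 0.10; adjusted p = 0.0628). Over all 54 partner genes tested, 6 rose and 20 fell, and the median was -0.57. Among all 11958 genes tested, 11.8% rose and 15.2% fell, and the median was -0.08. Of the formyl peptide receptors that bind Anxa1, Fpr1 rose, as given above, and Fpr2 did not pass at 0.67 ± 0.37 (adjusted p = 0.104). In the axis of granulocyte colony-stimulating factor, which drives neutrophil production, the receptor Csf3r rose by 1.47 ± 0.36, with 27.8 to 44.7 FPKM off, against 12.8 FPKM on (limma, adjusted p = 0.00726). Csf3 itself was listed at 0 in all 4 libraries. The transcription factors Cebpb, Gfi1 and Spi1 (listed as Sfpi1) fell, with changes of -1.85 ± 0.40, -1.55 ± 0.36 and -1.1 ± 0.37 (limma, adjusted p = 0.00366, 0.00564 and 0.0246). Cebpe, which late granule genes need, did not pass (-0.40 ± 0.59, limma, adjusted p = 0.469). Neither did Cebpd (0.09 ± 0.39), Stat3 (-0.64 ± 0.25) and Socs3 (-0.58 ± 0.21) of the same list (limma, adjusted p = 0.839, 0.0690 and 0.0734).

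The genes with patterns most like Mmp8 and S100a8 were found among all others. Likeness was the summed absolute difference of the 3 log2 changes, over 8873 other genes reaching 5 FPKM in at least 1 library and 3 times that share the on library. For Mmp8 the 5 nearest were Snora17 (0.69), Retnlg (0.78), Ccnb1ip1 (1.09), Rsad2 (1.12) and Fpr1 (1.15); Snora17, a short RNA, was listed at 0 with NRASG12V on. For S100a8 the 5 nearest were Kbtbd7, Sepp1, Adamtsl2, AA467197 and Actn1, at 0.09 to 0.15. Trem1 and Trem3 were each the 6th nearest gene to the other.

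Markers of other cells changed over the same libraries, in which 11.8% of all genes tested rose and 15.2% fell. Summed FPKM of 21 erythroid genes was 7772 on and 24551, 36769 and 39554 at 48 h, 72 h and 96 h off, and all 21 rose. The sum of 15 pan-leukocyte genes was 4465 on and 3111, 2461 and 1919 off, with 8 fallen, none risen and a median of -0.95. Of 25 monocyte and macrophage genes 10 fell and 1 rose, at sums of 2280 to 3647 FPKM off, against 3733 FPKM on. Of 9 platelet genes 6 rose, with sums of 576 to 687 FPKM off, against 391 FPKM on. T and NK cell genes rose in 5 of 8 cases, at summed levels of 30.5 to 41.0 FPKM off, against 14.6 FPKM on. The 5 were Cd3d, a part of the T cell receptor complex (3.79 FPKM on and 13.9, 11.3 and 7.42 FPKM off in time order), Lck, Cd8a, Gzma and Ncr1, with changes of 1.27 ± 0.42, 0.96 ± 0.23, 0.58 ± 0.12, 1.18 ± 0.46 and 1.24 ± 0.09 (SD, n = 3; limma, Benjamini-Hochberg adjusted p = 0.0168, 0.0138, 0.0410, 0.0271 and 0.00247). Cd3e and Cd3g of the same complex stayed under 1 FPKM in every library. Of the 9 B cell genes matched only Cd79b reached 1 FPKM, and Pax5 and Igll1 were listed at 0 in all 4 libraries. The part of these changes in the members' values was not tested.

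**Figure D5:**
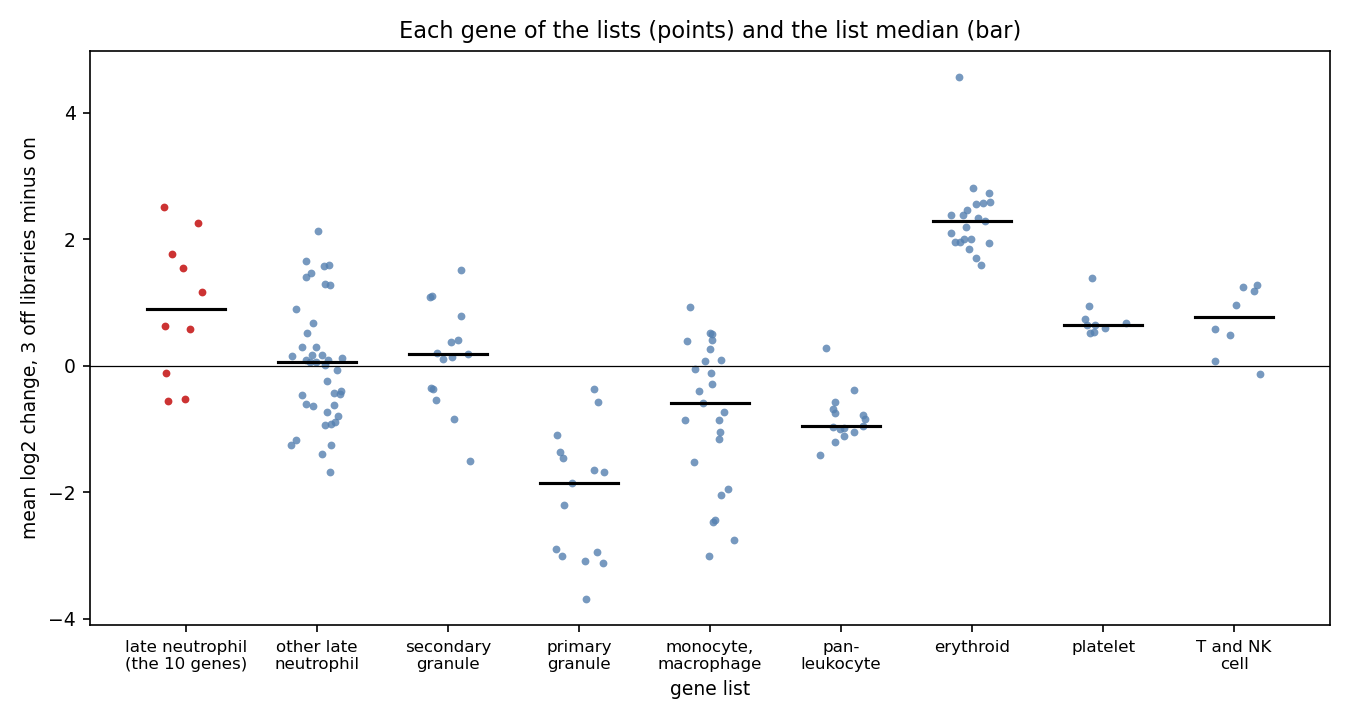
Mean log2 change of the 3 off libraries against the on library (y axis) for each tested gene (points) of 9 lists (x axis), with the list median as a bar. The median of the members (red) is 0.90, below that of erythroid genes (2.29). The nearest lists are T and NK cell genes (0.77) and platelet genes (0.65). Lower medians are those of secondary granule genes (0.19), other late neutrophil genes (0.06) and monocyte and macrophage genes (-0.58). Pan-leukocyte genes (-0.95) and primary granule genes (-1.85) are lowest.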

How the data were processed

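RNA-seq values of 4 libraries were used. The authors deposited FPKM per gene in 4 tables, each scaled separately and each pairing the on library (the column at 0 h) with 1 off library or with a combined off value; TopHat2 2.0.4, Cuffdiff and build mm9 are named in the submitters' processing notes, and no source used here gives the annotation, strand setting or Cuffdiff version. The on columns matched within 0.1% after 1 factor per table for at least 99.9% of genes above 0 in the 3 tables of 1 time, and this column set the common scale for levels and for limma. Changes by time were taken within each table as deposited.

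FPKM hold no read counts, so total depth is unknown and no counting interval is given; steps of the low values put the off libraries at 1.15, 1.04 and 1.18 times the reads per FPKM of the on library at 48 h, 72 h and 96 h. The pseudocount was 1 FPKM and the filter 1 FPKM in at least 1 library (for changes by time, in either library). limma 3.58.1 (R 4.3.3, trended prior, robust fit, residual degrees of freedom 2) was tested on simulated data. There the on library was drawn with a spread taken from the off libraries, so whether the real on library varies like them was not checked. Python 3.11.15 did the rest. Members, lists and tests were chosen with earlier results of these data known. All members are named, with partner genes by role and the 3 largest changes past the threshold in the late neutrophil and secondary granule lists; 1 gene that this rule names is not reported here. Of 256 list entries, 252 matched a gene. Promoter windows came from RefSeq for 8 of the 10 members. Alternatives were other pseudocounts, filters, centrings, limma settings and leaving out each off library. Fits without an off library have fewer residual degrees of freedom than the test over every library. Setting the pan-leukocyte median to 0 and the authors' combined off value were added after seeing the data.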

Additional observations from a re-analysis of the deposited data

Results flagged for a closer look

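Anxa1 was the only member whose log2 change differed in sign between times: it was 0.23 at 48 h, 0.06 at 72 h and -0.63 at 96 h off, each relative to the same on library. With 1 library at each time this difference was not tested.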

How the results depend on the processing

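No paired analysis was possible because each group holds 1 library. Mmp8, Retnlg, Mmp9 and Cxcr2 passed limma's test in each of the 9 alternatives tested, and Padi4 in 8. With a pseudocount of 0.1 FPKM, the genes past 2-fold numbered 969 higher and 861 lower at 48 h and 1205 higher at 72 h, and 2 members were lower at 96 h. With a pseudocount of 5 FPKM the counts were 281 higher and 250 lower at 48 h, 385 and 301 at 72 h, and 446 and 470 at 96 h, with 0 members lower; Cxcr2 then missed 2-fold at 96 h (0.83). With the median change set to 0, 0 members were lower at 96 h and 67.2% of the genes called at 48 h were higher, against 50.8% as deposited. With the pan-leukocyte median set to 0, 2071 genes were higher and 127 lower at 48 h, 4341 and 83 at 72 h, and 7242 and 71 at 96 h, with 7 members higher and 0 lower, and Trem3 at 0.21; limma then called 2604 genes higher and 48 lower, against 1410 and 1817, with Trem1 at 0.37, Trem3 at 0.34 and Anxa1 at 0.79. These shifts follow from the centring, which added 0.59, 0.88 and 1.23 to every gene at 48 h, 72 h and 96 h. Leaving out each off library gave 1095 to 1905 genes higher and 1205 to 2409 lower, 5 to 7 members higher and 0 to 1 lower, and Anxa1 at -0.28 to 0.15. The count of genes lower was 1205 without the 72 h library, and the cause was not tested. The authors' deposited combined off value gave log2 changes of 2.61 for Mmp8 and -0.02 for Anxa1. With 1 library a group, differences of Trem1, Trem3, S100a8 and S100a9 were not detectable beyond the spread between libraries in the test over all 4.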
